A study of Mus musculus with 8 samples.

Results

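Transcripts of collagens, laminins, matrix proteases and their close partners were measured in the kidneys of NEKO mice and their littermate controls. The genes were chosen by symbol: collagen chains, laminin chains, matrix metalloproteinases (Mmp), their tissue inhibitors (Timp), the Adamts proteases, fibulins, fibrillins, fibronectin and lysyl oxidases. The array held a named probe for 106 such genes. Of these, 75 were kept because the scanner software found a probe well above background in 4 or more of the 8 kidneys, out of 13573 named genes kept in all. The 19599 features tested across the series were these named genes and 6026 transcripts without a gene name.

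NEKO mice were Keap1-/-::Nrf2Flox/Flox::K5-Cre. They lack Keap1, the adaptor that marks the transcription factor Nrf2 for degradation, and the Keratin5 promoter drives Cre in squamous epithelia such as the oesophagus, where the floxed Nrf2 gene is removed. The 4 controls were Keap1+/-::Nrf2Flox/Flox (K1, 1 female, replicate 1) and Keap1+/-::Nrf2Flox/Flox::K5-Cre (K1Cre, female replicate 8 and male replicates 4 and 7). The 4 NEKO mice were females (replicates 2 and 3) and males (replicates 5 and 6). All 8 carried Nrf2Flox/Flox, were on a mixed 129Sv/J and C57BL/6J background and were 8 weeks old. One K1 mouse and 3 K1Cre mice thus made up the control group, so the effect of K5-Cre among controls could not be separated from the spread between mice. One slide held the 4 females and the other slide the 4 males, and the effects of sex and slide cannot be told apart.

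The extracellular matrix of the kidney has an interstitial part, in which fibril-forming collagens, collagen VI, fibronectin and fibrillin microfibrils are laid down largely by fibroblasts, and a basement membrane part, built of collagen IV and laminin networks around tubules, vessels and glomeruli. Lysyl oxidases cross-link collagen and elastin, metalloproteinases and Adamts proteases cleave matrix proteins, and Timps inhibit the metalloproteinases. The gain of interstitial matrix in an injured kidney is called fibrosis.

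Levels are given as log2 of the processed signal less the value at the 75th percentile of each array, so a difference of 1 is a 2-fold change. Probes differ in brightness, so levels were compared between mice and not between genes. The share of probes detected above background ran from 61.8% to 65.7% over the arrays, and no spot was saturated. Markers of the proximal tubule, the main mass of the kidney cortex, had mean levels of 6.24 to 6.42 on the 8 arrays. Keap1, the deleted gene, was lower in NEKO kidneys by 1.63 on the log2 scale (limma, adjusted p = 0.0046). The mean level of 6 genes, Keap1 and Nrf2 targets such as Nqo1, changed by 0.45 in females and 1.31 in males. This mean includes the lowered Keap1, and the median change of the 6 genes was 0.60 in females and 1.58 in males. This difference between the sexes was not tested. Calls were made in limma where the p-value, adjusted by Benjamini-Hochberg over all 19599 features, was under 0.05. These are whole kidneys, in which fewer cells of a type and less RNA per cell cannot be told apart, and the same holds for more of either.

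Across both sexes none of the 75 genes was called in a model with sex as a covariate. There 0 of the 75 genes were called higher, against a background of 0.0969% of all features, and 0 were called lower, against 0.128%. At an unadjusted p under 0.05, 9 genes were higher (12% of the 75, against 7.38% of all features) and 3 were lower (4%, against 10.6%). The median log2 change of the 75 genes was 0.15, and that of all features was -0.03. Without regard to p, 45 of the 75 genes (60%) were higher in NEKO kidneys, against 43.8% of all features. As an alternative, the male and female effects of a fit with a sex by genotype interaction were averaged. There Col6a1, Col6a2 and Fbln1 were called higher (4% of the 75, against 1.25% of all features) and Mmp13 lower (1.33%, against 1.37%), with limma adjusted p of 0.0129, 0.0095, 0.0476 and 0.0036. The averaged changes equal those of the model with sex as a covariate, with the sex difference taken out of the spread. For Col6a1 and Col6a2 they join male changes of 1.91 and 1.85 with female changes of -0.25 and -0.33. Fbln1 and Mmp13 changed in the same direction in both sexes.

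In males, 11 of the 75 genes rose in NEKO kidneys (14.7%, against a background of 2.71%) and 2 fell (2.67%, against 1.54%). The genes that rose were the collagen VI chains Col6a1 and Col6a2, the collagen I chains Col1a1 and Col1a2, Fbln1, Fbn1, Loxl2, Mmp2, Mmp3, Adamts2 and Timp1. The genes that fell were Mmp13 and Col4a4. The median change of the 75 genes in males was 0.42, against -0.03 over all features. At an unadjusted p under 0.05, 34 were higher in males (45.3%, against 9.96%) and 7 were lower (9.33%, against 9.93%). In females none was called, against backgrounds of 0.0408% higher and 0.0204% lower. There the median change was -0.10, the lowest adjusted p was 0.374, and 0 genes were higher and 4 lower at an unadjusted p under 0.05 (backgrounds 2.99% and 6.14%). Each of these contrasts rests on 2 mice against 2, with the spread estimated from all 8. When the 4 male arrays were fitted alone, a fit chosen after the data were seen, Col6a1, Col6a2 and Mmp13 were called and the other 10 were not. In fits that left out 1 mouse, Col6a1, Col6a2 and Mmp13 were called 8 times of 8, Mmp2 6 times, Col4a4 5 times and the other 8 genes between 1 and 3 times. The number called higher was 2 without NEKO replicate 6, 3 without control replicate 4, 5 without control replicate 1, 7 or 8, 7 without NEKO replicate 2 or 3, and 14 without NEKO replicate 5. With no filter on dim probes it was 5. No share of all features is given for these alternatives, so their counts have no background.

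**Figure D1:**
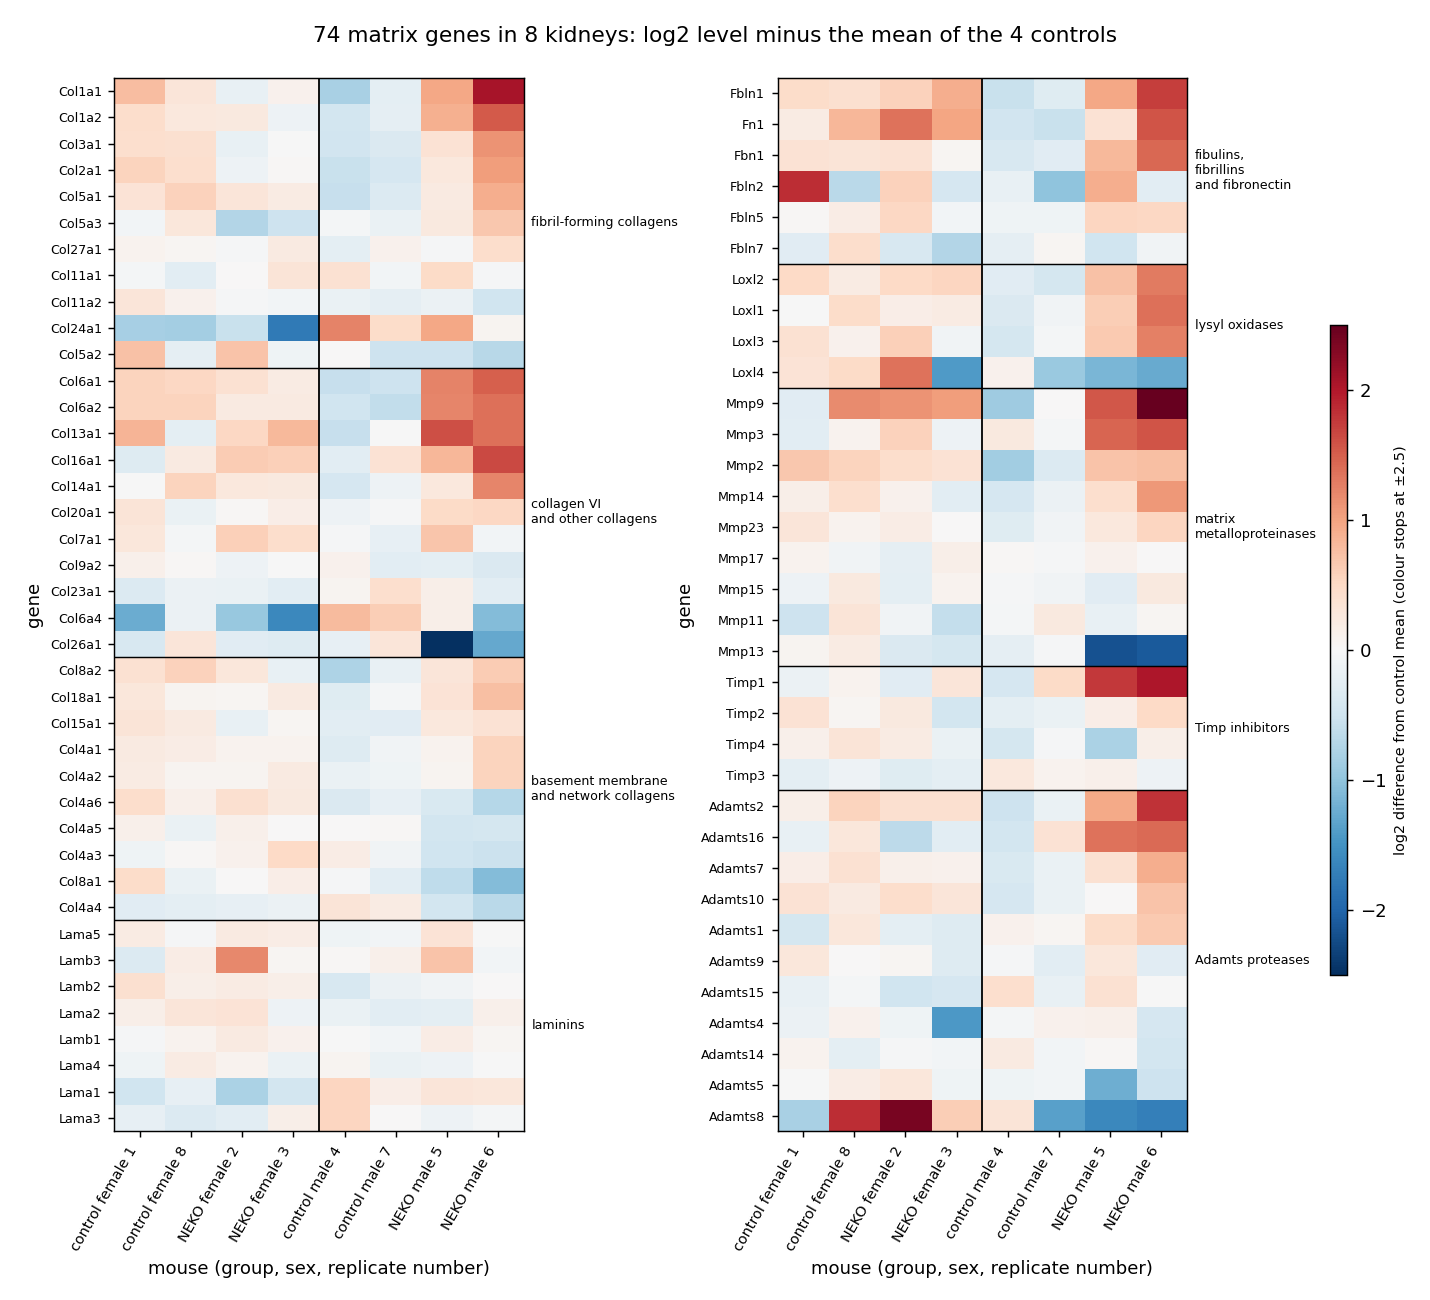
Level of 74 of the 75 genes in each of the 8 kidneys, as the log2 difference from the mean of the 4 controls (colour, red higher and blue lower). Rows are genes grouped by class and ordered within a class by the change in males, and columns are mice, females on the left of each panel and males on the right. The red rows of the male NEKO mice (replicates 5 and 6) include Col6a1, Col6a2, Col1a1, Col1a2 and Timp1, and their dark blue rows include Mmp13 and Col26a1.

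Levels also stood apart between the controls of each sex, a comparison that is equally one of slides and was not tested. The female controls also included the K1 mouse (replicate 1), whereas both male controls were K1Cre. Both male controls lay below both female controls for 38 of the 75 genes (50.7%, against 27.1% of all features), and above them for 7 (9.33%, against 24.4%). Relative to the mean of the 4 controls, the median deviation over the 75 genes was 0.14 and 0.18 in the female controls and -0.20 and -0.11 in the male controls. It was 0.11 and 0.02 in the female NEKO mice and 0.27 and 0.28 in the male NEKO mice. Both male NEKO mice exceeded all 6 other mice for 21 of the 75 genes (28%, against 9.17%) and lay below all 6 for 10 (13.3%, against 9.93%). They lay above both male controls for 39 genes (52%, against 24.1%) and below them for 13 (17.3%, against 28.4%). Both female NEKO mice lay above both female controls for 8 of the 75 genes, against 17.3% of all features, and below them for 22 (29.3%, against 25.2%).

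The effect of genotype differed between the sexes beyond the threshold for 1 of the 75 genes, Col6a2, against a background of 0.0153%. This gene was already known from earlier results of the same arrays, so its call is not independent evidence. It was not called in any of the 8 fits that left out 1 mouse, nor with quantile normalization, no filter on dim probes or the mean of the probes of a gene, and its adjusted p (limma) ran from 0.0267 to 0.181 over the alternatives. At an unadjusted interaction p under 0.05 there were 30 genes (40%, against 10.5%), of which 26 had the higher change in males (34.7%, against 6.87%) and 4 the lower one (5.33%, against 3.67%).

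**Figure D2:**
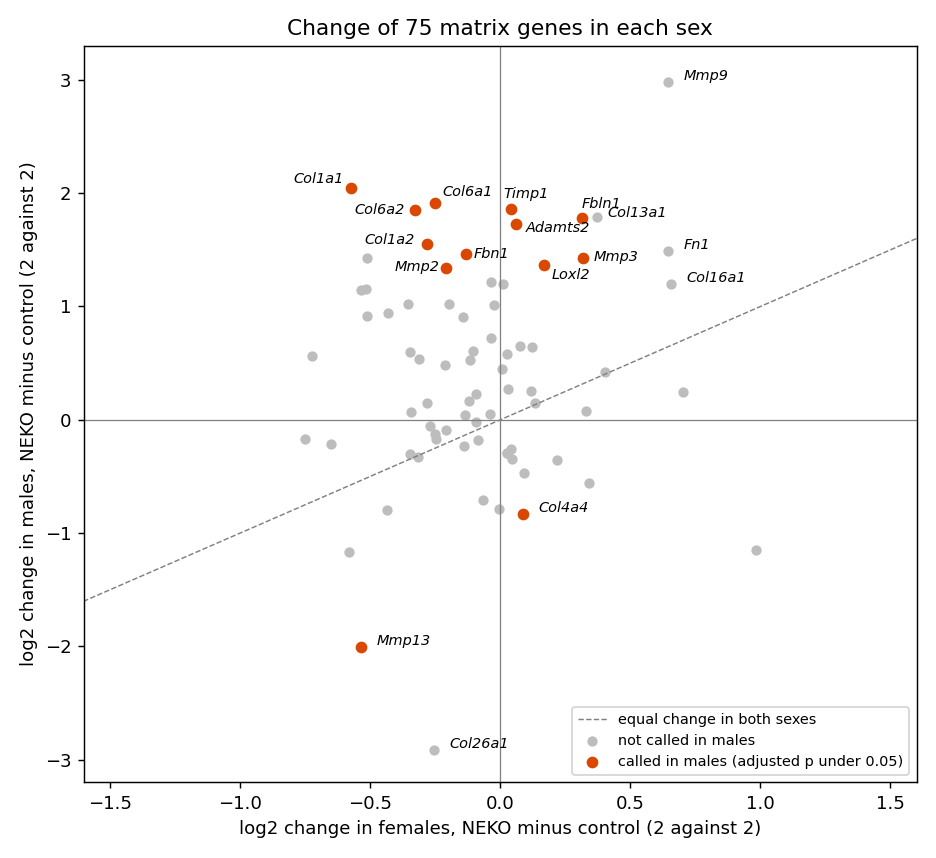
Log2 change of the 75 genes between NEKO and control kidneys in females (x axis) and in males (y axis), each from 2 mice against 2, with called genes in males in orange. The dashed line marks equal change. The female changes run from -0.75 to 0.98, and the male changes reach down to -2.92. Changes of genes not well above background in a group, such as Mmp9 and Mmp13 in males, are plotted as measured and are not sized by these points.

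Collagen VI, which forms beaded microfibrils around interstitial cells, supplied the pair of genes with the lowest adjusted p among those that rose in males. In controls, Col6a1 stood at -0.47 and -0.51 in females and at -1.61 and -1.55 in males. In NEKO mice it stood at -0.65 and -0.83 in females and at 0.20 and 0.46 in males. The male NEKO mice were thus the highest of the 8 and the male controls the lowest. Col6a1 rose in males by 1.91 ± 0.13 (SE, limma adjusted p = 0.0035), and its change in females was -0.25 ± 0.13 (adjusted p = 0.591).

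Col6a2, a chain that assembles with it, followed the same order of groups. Its control levels were -2.22 and -2.22 in females and -3.27 and -3.39 in males, and its NEKO levels were -2.55 and -2.55 in females and -1.56 and -1.40 in males. It rose in males by 1.85 ± 0.11 (limma adjusted p = 0.0027). Its change in females was -0.33 ± 0.11 (adjusted p = 0.491). The difference between the sexes was 2.18 (limma, interaction adjusted p = 0.0349), and that of Col6a1 was 2.16 (adjusted p = 0.0582). Over both sexes the changes were 0.83 for Col6a1 and 0.76 for Col6a2, neither called in the model with sex as a covariate and both called when averaged over the sexes. Col6a4, which encodes another collagen VI chain, showed changes of -1.17 in males and -0.58 in females (adjusted p = 0.279 and 0.745).

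Because Nrf2 binds the antioxidant response element (ARE) and AP-1 factors bind a related element, promoter sequences were searched for the ARE core TGACNNNGC and for the AP-1 element TGANTCA on both strands, from 250 bases before to 50 bases after each start. The letters of the motifs can overlap, since an ARE core may begin with the letters of an AP-1 element, but no promoter of the set held both. RefSeq promoters (GRCm38.p6) were at hand for 51 of the 75 genes (57 promoters). The ARE core was present in 10 of the 57 (17.5%), against 12.4% of 32851 promoters of all genes, and AP-1 in 3 (5.26%), against 7.81%. Col6a1 and Col6a2 lie near each other on chromosome 10, and their upstream sequences are shown because they moved together and differ in these letters. Capitals mark the match: AP-1 in Col6a1, which begins 90 bases before the start, and the ARE core in Col6a2, which begins 72 bases before it. The stretches are chr10:76726045-76726294 for Col6a1 and chr10:76623405-76623654 for Col6a2, both on the minus strand and printed 5′ to 3′ up to the start, with a second Col6a2 promoter not printed.
Col6a1: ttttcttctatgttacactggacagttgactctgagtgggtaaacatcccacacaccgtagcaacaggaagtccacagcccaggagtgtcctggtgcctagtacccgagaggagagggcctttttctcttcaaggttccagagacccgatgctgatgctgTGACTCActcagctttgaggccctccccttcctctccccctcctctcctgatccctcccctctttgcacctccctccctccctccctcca
Col6a2: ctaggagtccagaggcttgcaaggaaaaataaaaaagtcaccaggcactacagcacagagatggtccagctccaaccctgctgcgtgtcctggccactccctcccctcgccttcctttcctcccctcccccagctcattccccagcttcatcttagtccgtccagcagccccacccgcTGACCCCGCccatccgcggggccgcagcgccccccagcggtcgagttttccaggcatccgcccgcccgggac
A match is a description of the letters and no evidence of binding.

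Among the 11 fibril-forming collagens, 2 rose in males and none fell, and 8 of the 11 had a higher mean in male NEKO than in male control kidneys. Of all features, 2.71% were called higher in males and 45.8% had a higher mean there, the background for each class. The class median was 0.57 in males and -0.28 in females. Col1a1 and Col1a2 encode the chains of collagen I, the main fibrillar collagen of scars. Col1a1 stood in controls at 1.64 and 1.17 in females and at 0.05 and 0.62 in males. In NEKO mice it stood at 0.69 and 0.97 in females and at 1.83 and 2.92 in males. The male groups did not overlap, and both female NEKO levels lay below both female control levels. The change in males was 2.04 ± 0.39 (limma adjusted p = 0.0463), and a second Col1a1 probe gave 2.03.

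Col1a2 stood in controls at 3.73 and 3.55 in females and at 2.84 and 3.07 in males, and in NEKO mice at 3.54 and 3.17 in females and at 4.18 and 4.84 in males. The male NEKO levels were above those of the other 6 mice. It rose in males by 1.55 ± 0.25 (limma adjusted p = 0.0279). Col3a1, the collagen that accompanies collagen I in reticular fibres, had a change of 1.15 ± 0.24 in males, just short of the call (limma adjusted p = 0.057), and of -0.52 in females. Col5a1, a chain of the collagen that starts fibrils, gave 1.03 in males (adjusted p = 0.077), and its second probe gave 0.47. For Col2a1, the collagen of cartilage, the 2 probes disagreed, with male changes of 1.14 and -0.12. The remaining fibril-forming collagens had male changes between -0.35 and 0.57.

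**Figure D3:**
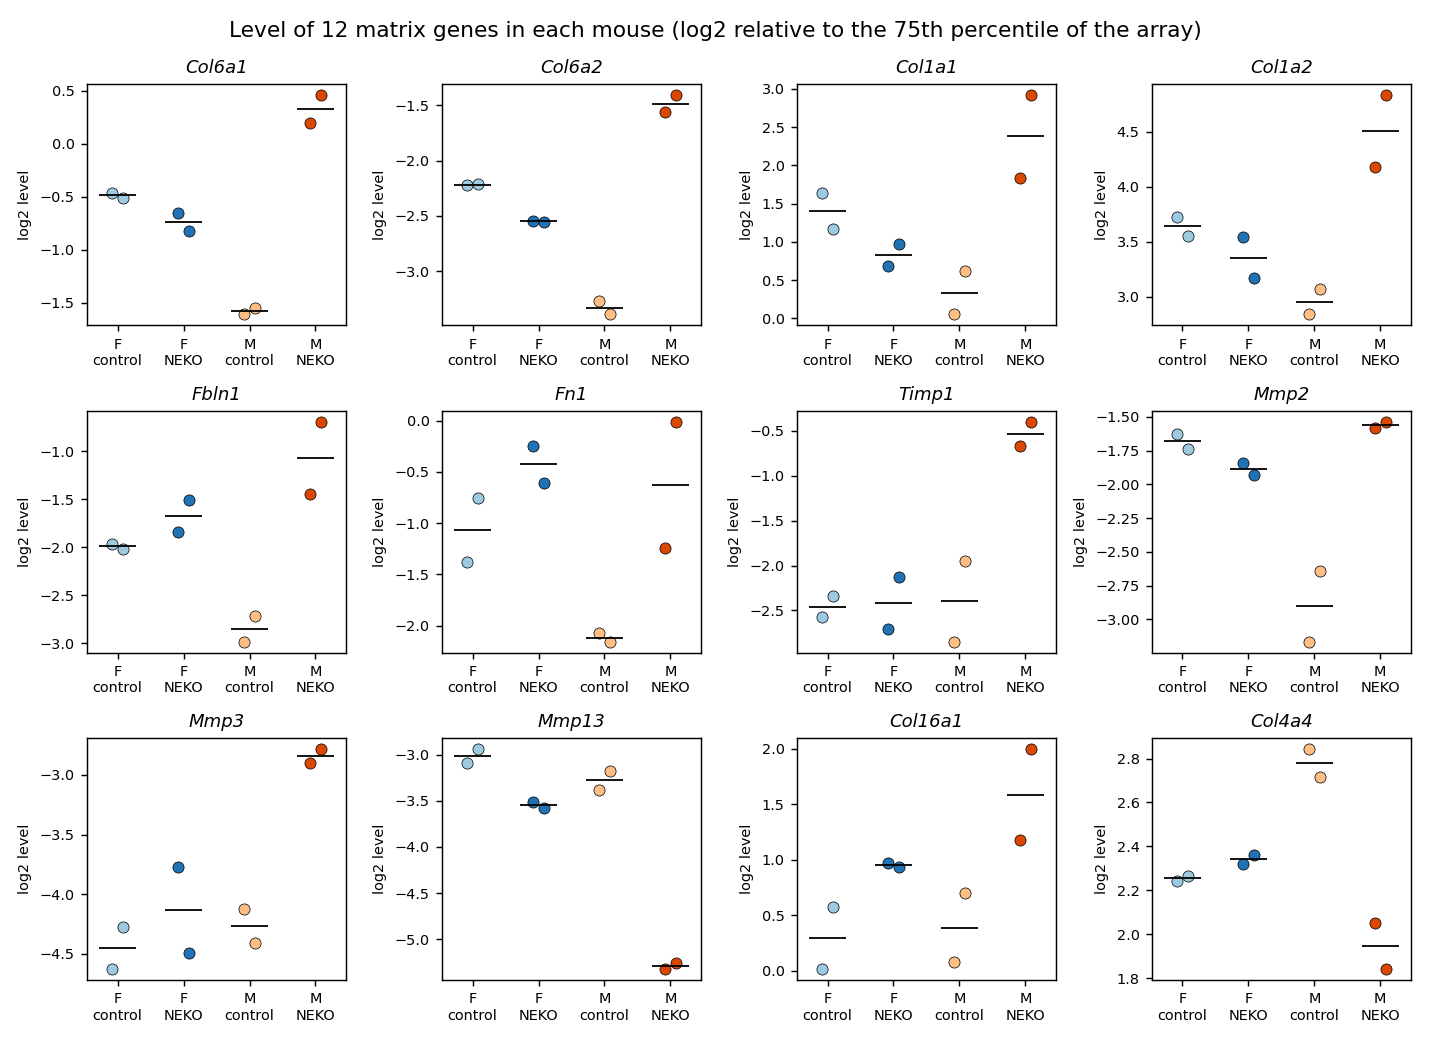
Log2 level, scaled to each array's 75th percentile, of 12 genes in each of the 8 mice, by sex (F, M) and genotype, with 1 point per mouse and a line at the mean of each pair. Col6a1, Col6a2, Col1a1, Col1a2 and Timp1 are highest in the 2 male NEKO mice, whereas Mmp13 and Col4a4 are lowest there.

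Basement membrane and network collagens did not move as 1 group. Of 10 genes, 5 had a higher mean in male NEKO kidneys and 5 a lower one, and Col4a4 was the only called gene of the 10. Col4a4, a chain of the collagen IV network of the mature glomerular basement membrane, stood in controls at 2.24 and 2.27 in females and at 2.84 and 2.71 in males. In NEKO mice it stood at 2.32 and 2.36 in females and at 2.05 and 1.84 in males. It fell in males by 0.83 on the log2 scale (limma adjusted p = 0.019) and its change in females was 0.09 ± 0.11. Here the male controls were the highest of the 8 mice and the male NEKO mice the lowest, the reverse of the order of Col6a1.

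Its partners Col4a3 and Col4a5 had male changes of -0.55 ± 0.17 and -0.47 ± 0.13 (limma adjusted p = 0.138 and 0.104). In contrast, Col4a1 and Col4a2, the chains found in nearly all basement membranes, had male changes of 0.53 ± 0.17 and 0.44 ± 0.18 (adjusted p = 0.166 and 0.237). None of these 4 was called, and all 4 had an unadjusted p under 0.05 in males. Podocyte markers had a mean change of 0.15 in males and 0.16 in females, and none of 4 was called. Collecting duct markers had one of -0.57 in males and -0.29 in females. In males 2 of these 4 were called lower, where 1.54% of all features were. The part of either cell type in the collagen IV changes was not tested. Col18a1, whose C-terminal fragment is endostatin, gave 0.72 in males (adjusted p = 0.090), Col15a1, a related collagen of the basement membrane zone, 0.59 (adjusted p = 0.051), and Col8a1, a chain of a network collagen of vessels, -0.71 (adjusted p = 0.193).

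Laminins, the heterotrimers that organise basement membranes, showed the narrowest range of the 9 classes in males. None of the 9 was called in any contrast, and the male changes ran from -0.36 to 0.25. Lama5, the alpha chain of most kidney laminins, had a change of 0.25 in males and 0.12 in females. Lamb1 had one of 0.15 in males and 0.13 in females, and Lamb2, the beta chain of the mature glomerulus, of 0.23 and -0.10.

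Of the 6 fibulins, fibrillins and fibronectin, 5 were higher in male NEKO than in male control kidneys and 2 were called, where 45.8% and 2.71% of all features did so. Fbln1, an elastic fibre and basement membrane protein, stood in controls at -1.97 and -2.02 in females and at -2.98 and -2.72 in males. In NEKO mice it stood at -1.85 and -1.51 in females and at -1.45 and -0.69 in males. It was 1 of 3 of the 75 genes whose 4 NEKO and 4 control levels did not overlap. All 4 NEKO levels lay above all 4 control levels for Fbln1 and Col16a1 (2.67% of the 75 genes, against 3.89% of all features) and below them for Mmp13 (1.33%, against 5.38%). Any gene without overlap has an exact two-sided permutation p of 0.0286, the smallest that 4 mice against 4 can give. For these 3 genes, picked for their lack of overlap, this p adds nothing, and it took no account of sex. Fbln1 rose in males by 1.78 ± 0.26 (limma adjusted p = 0.0228), and its change over both sexes was 1.05 ± 0.33 (adjusted p = 0.189).

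Fbn1, the main component of microfibrils, stood in males at -2.41 and -2.29 in controls and at -1.20 and -0.58 in NEKO mice, and rose by 1.46 (limma adjusted p = 0.0247). In females its 4 levels lay between -1.95 and -1.64, below both male NEKO levels. Fn1, which encodes fibronectin, stood in controls at -1.38 and -0.76 in females and at -2.07 and -2.15 in males. Its NEKO levels were -0.24 and -0.60 in females and -1.24 and -0.01 in males. Both NEKO levels exceeded both control levels within each sex, but the groups overlapped across the sexes. The change was 1.07 ± 0.32 over both sexes and 1.49 ± 0.41 in males (limma adjusted p = 0.176 and 0.118).

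**Figure D4:**
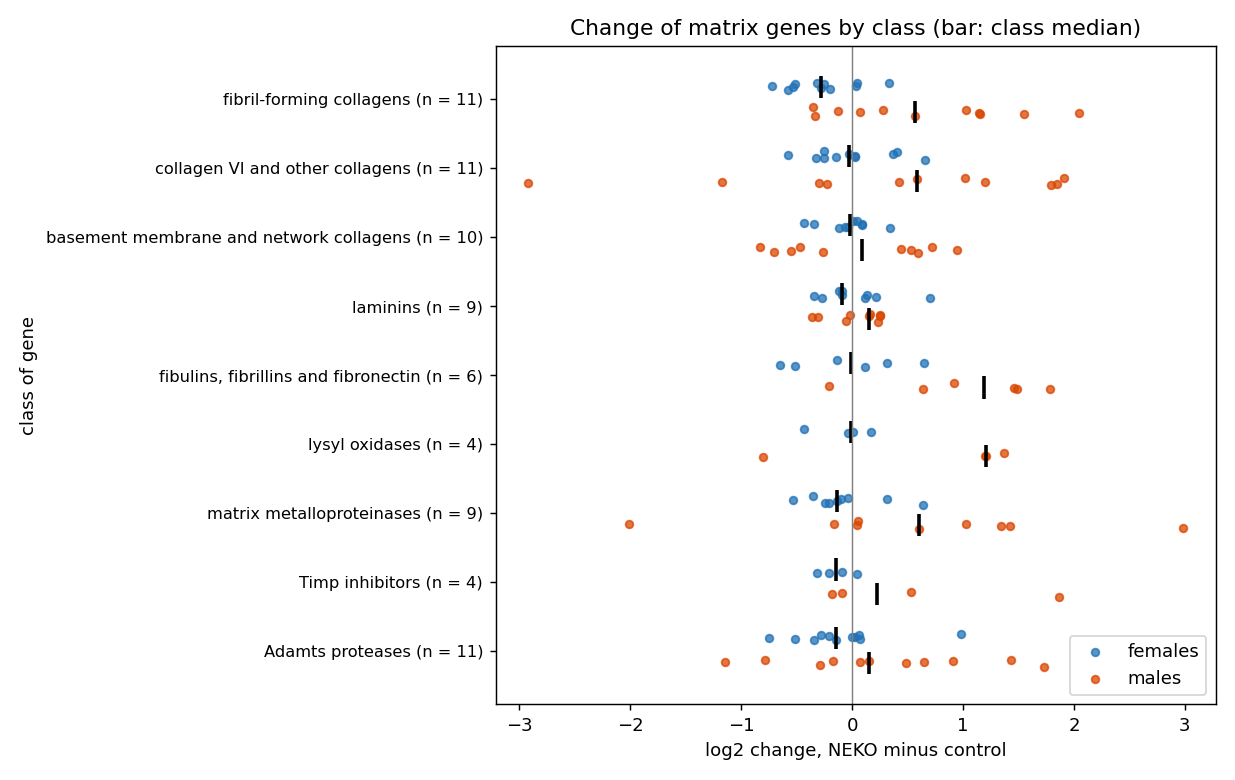
Log2 change of each gene between NEKO and control kidneys (x axis) by class (y axis) in females (blue) and males (orange), each from 2 mice against 2, with a black bar at the class median. The median in males exceeds that in females in each of the 9 classes, from 0.09 against -0.01 in the basement membrane and network collagens to 1.21 against -0.01 in the lysyl oxidases.

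Of the remaining collagens, Col16a1, a collagen that associates with fibrils, stood in controls at 0.02 and 0.58 in females and at 0.08 and 0.70 in males. Its NEKO levels were 0.97 and 0.94 in females and 1.18 and 2.00 in males. The change over both sexes was 0.93 ± 0.25 (limma adjusted p = 0.154), with 0.65 in females and 1.20 in males. Col13a1, a transmembrane collagen, had changes of 0.37 in females and 1.79 in males (adjusted p = 0.777 and 0.058). Col26a1 had the lowest change of the 75 genes in males, -2.92, but its 2 male NEKO mice were far apart, at -4.46 and -1.28, against -0.20 and 0.30 in male controls (limma adjusted p = 0.161).

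The lysyl oxidase class held 4 kept genes, all of them Lox-like. Loxl2, which cross-links collagen and is tied to fibrosis, stood in controls at 0.57 and 0.27 in females and at -0.21 and -0.37 in males. Its NEKO levels were 0.57 and 0.60 in females and 0.79 and 1.36 in males, the latter pair above the other 6 mice. It rose in males by 1.37 ± 0.21 (limma adjusted p = 0.0267), and its second probe gave 1.22. Loxl1, needed for elastic fibres, gave 1.21 in males (adjusted p = 0.075). Loxl3 was not well above background in the male controls, and its ratio there, at least 2.30-fold higher, is a lower bound (limma adjusted p = 0.098, not called). Such bounds compare the mean of the bright group with a floor for the dim group: on each array, its own signal or the lowest one passing the detection test, whichever was higher. For Loxl3 the male control signals lay above the lowest passing one, so its bound equals the ratio as measured.

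Matrix metalloproteinases moved in both directions in males: 2 of 9 rose and 1 fell. Mmp2, the gelatinase made mainly by stromal cells, stood in controls at -1.63 and -1.74 in females and at -3.16 and -2.64 in males. In NEKO mice it stood at -1.84 and -1.93 in females and at -1.59 and -1.54 in males. The male NEKO levels were thus close to those of the female mice, and the male controls stood apart below. Mmp2 rose in males by 1.34 ± 0.18 (limma adjusted p = 0.0175). Mmp14, the membrane protease that activates pro-Mmp2, had changes of 1.03 in males and -0.35 in females (adjusted p = 0.095 and 0.691).

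Mmp13, the main interstitial collagenase of the mouse, was the gene with the lowest adjusted p of the 75 over both sexes. Its control levels were -3.08 and -2.94 in females and -3.38 and -3.18 in males. Its NEKO levels were -3.51 and -3.58 in females and -5.32 and -5.25 in males. It was well above background on 6 arrays and on neither male NEKO array. Over both sexes its change was -1.27 ± 0.29 (limma adjusted p = 0.116). On the processed signal it was at least 4.02-fold lower in males, a bound that equals the ratio as measured (limma adjusted p = 0.0027). In females its change was -0.53 ± 0.12 (adjusted p = 0.374). The size depended on the background correction. With normexp correction the male change was -0.80 on the log2 scale, smaller than that bound and still called.

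Mmp3, stromelysin-1, stood in controls at -4.62 and -4.28 in females and at -4.12 and -4.41 in males, and in NEKO mice at -3.77 and -4.49 in females and at -2.90 and -2.78 in males. The male NEKO levels stood alone at the top. It rose in males by 1.42 ± 0.26 (limma adjusted p = 0.040), and by 0.81 with normexp correction. Mmp9, the gelatinase abundant in neutrophils, stood at -3.92 and -1.95 in male NEKO mice and was not well above background in the male controls, at -6.37 and -5.47. Its ratio in males, at least 6.97-fold higher, was not called (limma adjusted p = 0.094). Mmp7, Mmp10 and Mmp12 were among the 12 metalloproteinases not kept. Mmp12, the macrophage elastase, was well above background on both male NEKO arrays and on no other.

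The upstream sequences of Mmp13 and Mmp3, which changed in opposite directions in males, are shown because each holds an AP-1 element close to the start (capitals), beginning 35 bases before it in Mmp13 and 46 bases before it in Mmp3. Both genes lie on the plus strand of chromosome 9 (RefSeq, GRCm38.p6), at chr9:7272264-7272513 and chr9:7445572-7445821. With Col6a1 these were the 3 genes of the set whose promoters held the element, and they included 2 that rose and 1 that fell in males.
Mmp13: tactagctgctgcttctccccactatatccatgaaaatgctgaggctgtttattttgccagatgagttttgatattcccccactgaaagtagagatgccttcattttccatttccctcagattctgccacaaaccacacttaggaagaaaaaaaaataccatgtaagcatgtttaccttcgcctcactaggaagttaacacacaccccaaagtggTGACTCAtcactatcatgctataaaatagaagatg
Mmp3: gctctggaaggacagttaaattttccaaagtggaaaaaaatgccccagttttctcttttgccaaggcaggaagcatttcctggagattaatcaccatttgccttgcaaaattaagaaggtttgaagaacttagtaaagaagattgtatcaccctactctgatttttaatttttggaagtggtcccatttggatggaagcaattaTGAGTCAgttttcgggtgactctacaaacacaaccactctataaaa
No ARE core lay in either window.

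Timp1, the inducible inhibitor of metalloproteinases, was the only called gene of the 4 Timps. Its control levels were -2.58 and -2.34 in females and -2.85 and -1.95 in males. Its NEKO levels were -2.71 and -2.13 in females and -0.67 and -0.40 in males. The male NEKO mice lay above the other 6, whose levels overlapped across genotype and sex. Timp1 rose in males by 1.86 ± 0.33 (limma adjusted p = 0.038), and its change in females was 0.04. A second Timp1 probe, well above background on 4 arrays, gave 3.31 in males and -0.73 in females. Timp2 had changes of 0.53 in males and -0.31 in females, and Timp3, the Timp that binds to matrix, -0.18 and -0.09. Timp4 had -0.09 and -0.21 and was well above background on 4 arrays, the lowest number at which a gene was kept.

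Among 11 Adamts proteases, 1 rose in males. Adamts2, which removes the N-propeptide of procollagen, stood in males at -0.87 and -0.52 in controls and at 0.61 and 1.46 in NEKO mice. Its female levels were -0.20 and 0.20 in controls and 0.06 and 0.05 in NEKO mice, so that both male NEKO levels exceeded the other 6. It rose in males by 1.73 ± 0.30 (limma adjusted p = 0.0354). Adamts16 gave 1.43 in males (adjusted p = 0.059) and -0.51 in females. Adamts5, an aggrecanase, gave -0.79 in males (adjusted p = 0.161).

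Other genes of the matrix, taken from a list of proteoglycans, glycoproteins, proteins of collagen making, TGF-beta and matrix regulators and matrix receptors, were set beside these. Of the 86 that were measured, 0 were called over both sexes, where 0.0969% of all features were called higher. In males 14 rose, where 2.71% of all features did so, and none was called in females. The median change was 0.13 over both sexes, 0.32 in males and -0.06 in females. Those that rose in males included the collagen-binding proteoglycans Dcn (1.40) and Lum (1.79), the basement membrane linker Nid1 (0.93), the elastic fibre proteins Emilin1 (1.37) and Mfap4 (1.72), and the calcification inhibitor Mgp (1.72). They also included Tgfb1 (0.76), the cytokine that induces collagen synthesis, the hyaluronan receptor Cd44 (1.61) and the urokinase receptor Plaur (1.57). Vcan, the proteoglycan with the lowest p of the list over both sexes, went the other way and was not called (limma adjusted p = 0.0736). It was at least 3.68-fold lower in NEKO kidneys, well above background on 4 control arrays and 0 NEKO arrays. All 4 NEKO levels lay below all 4 control levels, as for 5.38% of all features. Vcan was kept through the control arrays alone, so its low p and its lack of overlap were partly set by the detection filter. They are given as a description and lend no support. None of 17 genes of collagen making, enzymes and other proteins, was called in males, and their median change was 0.03.

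Markers of several cell types also differed in the males, and their part in these results was not tested. In males 2.71% of all features were called higher and 1.54% lower, the background for the counts of called markers here and below. The mean log2 level of 7 fibroblast and stroma markers lay between -0.94 and 0.24 in controls and between -0.39 and 0.38 in NEKO mice. The change of this mean was 0.82 in males and -0.25 in females, and 3 of the 7 were called in males: Pdgfrb (0.86), Dcn and Lum, of which Dcn and Lum also stand in the matrix list. None of 6 smooth muscle and myofibroblast markers was called, with a mean change of 0.31 in males, and none of 6 endothelial markers, with 0.16. The 6 urothelial markers lay between -2.84 and -1.28 in controls and between -1.51 and -0.44 in NEKO mice, with a change of 2.05 in males and 0.12 in females and 3 called in males (Upk1b, Upk2 and Upk3a). The male controls had the lowest levels of the urothelial list, and likewise of the fibroblast and stroma list, the endothelial list and Col6a1.

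The leukocyte lists also had a higher mean in male NEKO than in male control kidneys. For 6 macrophage markers the mean change in males was 0.58, and the mean level was -0.72 and 0.07 in male NEKO mice against -0.86 and -0.95 in male controls. Lyz2, which neutrophils express too, was the called marker among them, at 2.67, whereas Csf1r and Cd14 gave -0.67 and -0.02 (not called). The mean change was 2.06 for 3 neutrophil markers (none called) and 0.69 for 4 lymphocyte markers (Cd3g called). For proximal tubule markers it was -0.08, with none of 5 called, and for collecting duct markers -0.57, with Scnn1b and Atp6v1b1 called lower among 4.

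**Figure D5:**
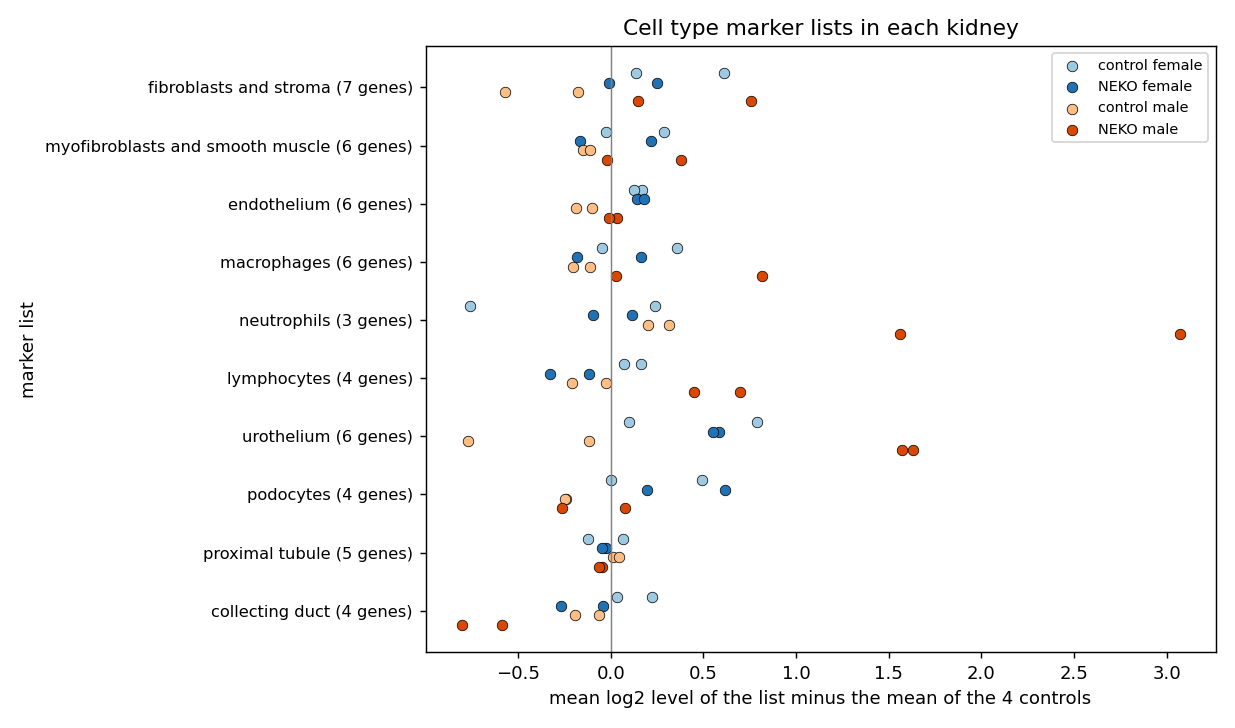
Mean log2 level of each cell type marker list in each kidney, minus the mean of the 4 controls (x axis), by list (y axis), with 1 point per mouse coloured by genotype and sex. The male NEKO mice are highest for the neutrophil, lymphocyte and urothelium lists and lowest for the collecting duct list, and the proximal tubule points lie close together.

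Of the 31 genes not kept, 12 were metalloproteinases, 9 collagens of the group outside fibrils and basement membranes, 6 Adamts proteases, and 1 each Col10a1, Fbn2, Lamc3 and Loxhd1, the last of which matches the symbol pattern but is no lysyl oxidase. Just outside the threshold, Col19a1 was well above background on 3 arrays, all controls, with means of -3.94 in controls and -7.06 in NEKO mice. Just inside it, with 4 arrays, were Adamts8 (means of -4.45 in controls and -4.53 in NEKO mice), Col24a1 (-5.12 and -5.44), Loxl4 (-4.78 and -5.39) and Timp4 (-4.86 and -5.01). Fbn2 was well above background on both male NEKO arrays alone. Among the 26 genes with several kept probes, the sign of the change over both sexes differed between probes for Col2a1, Col23a1 and Col5a1.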

How the data were processed

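Kidney RNA was hybridised by the authors to Agilent 1-colour arrays and read with Feature Extraction 10.7.3.1. The deposited scanner files hold intensity values per spot, in which the processed signal is background-subtracted. The authors also deposited a matrix of log2 values: 99.9% of it lay within 0.01 of log2 processed signal less the 75th percentile of the array and the median of the probe.

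Outlier spots, 73 to 172 of 43379 per array, were left out and spots of 1 probe averaged. Of 41174 probes, 26682 were named by matching accessions to RefSeq genes of GRCm38.p6 (18213 genes). Lox, Lamc1 and Col6a3 had no probe named this way. Values of 1 gene of the set are not reported here. A probe was kept if well above background on 4 arrays with values on 6, and the brightest kept probe stood for its gene. Every one of the 75 genes had a value on all 8 arrays. limma 3.58.1 in R 4.3.3 fitted genotype and sex, and a second model their interaction, from which the contrasts within a sex came. All 8 samples were grouped by their labels. They are separate mice, and their number limits the precision. The pipeline was tested on simulated data. The genes and lists were chosen with earlier results of these data known. Named were genes called or with the lowest p in a class or interaction and a list of well-known members; Adamts8, Adamts16, Col2a1, Col15a1, Col19a1, Col23a1, Col24a1, Col26a1, Fbn1, Fbn2, Lamc3, Loxl4, Mmp10 and Mmp12 were picked out once their values had been seen.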

Additional observations from a re-analysis of the deposited data

Results flagged for a closer look

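In 3 cases a mouse stood apart within a group of 4 mice, judged by the gap to the nearest mouse as a share of the range of the group. Chance picks out about 1 in 20 groups, and 3 of 80 groups were picked out. In NEKO replicate 6, a male, Col4a1 was high, at 2.82 against 2.34 to 2.36 in the other NEKO mice (gap share 0.9705), and so was Col5a1, at -0.35 against -1.06 to -0.96 (gap share 0.8603). In NEKO replicate 3, a female, Fbln5, an elastic fibre protein, was low, at -3.96 against -3.38 to -3.36 (gap share 0.9679). The effect of genotype on Col6a2 differed between males and females, by 2.18 on the log2 scale in the interaction term. Its adjusted p ranged from 0.0267 to 0.181 over the alternatives, and it was not called in any fit that left out 1 mouse.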

How the results depend on the processing

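Over both sexes, the number of genes of the set called higher was 0. It was 3 when the interaction model's effect was averaged over males and females and 7 with the methods' t-test unadjusted, and the number called lower was 1 when averaged. Of the other matrix genes, 1 was called higher with normexp correction, 3 when averaged and 9 with the methods' t-test unadjusted, which called 1 lower. Except for the averaged effect, no share of all features is given for the alternatives in this section, so their counts have no background. In males, 5 were called higher with no filter on dim probes and 2 when the male arrays were fitted alone, an alternative added after the data were seen, while 1 was called lower there and 1 when detection above background was required on all 8 arrays. The interaction count of 1 was 0 with quantile normalization, no filter or the mean of probes, and 2 with normexp correction, the filter on all 8 arrays or a robust trended prior. Leaving out each mouse in turn gave 2 to 14 higher and 1 to 2 lower in males, 0 for the interaction, 0 for the counts over both sexes, in females and of other matrix genes, and a median change of 0.04 to 0.24. Such fits turned the sign of the change over both sexes for Col4a3 (-0.27 to 0.038) and Lamb2 (-0.018 to 0.15) without control replicate 4, for Timp2 (-0.041 to 0.34) without NEKO replicate 6 and for Timp4 (-0.35 to 0.029) without NEKO replicate 5. None of these 4 was called. Where 1 mouse remained in an arm, it was assumed to vary like the others. Among single genes in males, 161 of the values under alternatives kept their call and 59 lost it, with no change of direction. The causes were not tested. No paired analysis was possible because the groups share no replicate number. Signal over background limits Mmp13, Mmp9, Loxl3, Loxl4, Col8a2 and Adamts8 to bounds in males. The bound of Mmp13 held for the processed signal and not with normexp correction.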
